A study of Mus musculus with 6 samples.

Results

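Platelet granule and proplatelet genes were followed in RNA-seq of mouse hearts at embryonic day (E) 9.5, 3 libraries from FlncgKO embryos and 3 from littermate controls. The 10 genes were a list of platelet granule content, granule formation and proplatelet microtubule genes, out of 54356 genes in the files, and were split by where else they are expressed. The 7 lineage-restricted genes were Pf4, Ppbp, Tubb1, F5, Slc35d3, Ly6g6f and Nbeal2, and the 3 genes that endothelial cells also express were Vwf, Selp and Thbs1. FlncgKO embryos lack filamin C, an actin crosslinker of striated muscle. This global knockout was made by crossing floxed Flnc mice with Sox2-Cre mice, so blood and vessel cells carried the deletion too. Controls were littermates whose exact alleles were not named, and both groups were C57BL/6. The labels called the tissue whole heart, the study's methods named hearts or isolated ventricles, and how many hearts went into a library was not stated, so p-values measure only the spread between these libraries.

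Megakaryocytes make platelets by extending proplatelets, long processes held open by microtubules, into which granules are carried. Alpha granules hold chemokines, clotting factors and adhesive proteins, and dense granules hold small molecules such as ADP and serotonin. Cells of the megakaryocyte lineage arise early, in the yolk sac, and reach the embryo through the circulation. Endothelial cells store von Willebrand factor and P-selectin in granules of their own, so RNA for these proteins in a heart can come from vessel and endocardial cells as well.

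Promoters of the 4 lineage-restricted genes with the largest fold changes, and of Nbeal2, the one with the smallest, are shown for comparison of their sequence. GATA and ETS proteins are the transcription factor families best known for driving megakaryocyte genes. Each line gives the 250 bases before the start site in RefSeq (GRCm38.p6), 5′ to 3′ on the gene's strand, with matches in capitals.
Pf4, chr5:90772185-90772434, plus strand: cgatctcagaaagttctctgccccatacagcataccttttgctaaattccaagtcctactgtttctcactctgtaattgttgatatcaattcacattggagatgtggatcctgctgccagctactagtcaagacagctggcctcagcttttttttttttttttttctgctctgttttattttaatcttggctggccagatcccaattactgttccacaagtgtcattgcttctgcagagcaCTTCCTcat
Ppbp, chr5:90768268-90768517, plus strand: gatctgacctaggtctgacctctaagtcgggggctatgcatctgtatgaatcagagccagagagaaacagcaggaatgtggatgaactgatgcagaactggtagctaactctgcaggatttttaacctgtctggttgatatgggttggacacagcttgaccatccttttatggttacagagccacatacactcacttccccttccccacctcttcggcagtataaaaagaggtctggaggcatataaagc
Ly6g6f, chr17:35085596-35085845, minus strand: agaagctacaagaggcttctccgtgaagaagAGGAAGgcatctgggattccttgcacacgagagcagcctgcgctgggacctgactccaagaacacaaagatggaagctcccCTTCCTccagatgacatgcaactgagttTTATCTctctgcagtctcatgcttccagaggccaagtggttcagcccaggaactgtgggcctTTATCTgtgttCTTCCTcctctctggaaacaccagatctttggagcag
Tubb1, chr2:174450345-174450594, plus strand: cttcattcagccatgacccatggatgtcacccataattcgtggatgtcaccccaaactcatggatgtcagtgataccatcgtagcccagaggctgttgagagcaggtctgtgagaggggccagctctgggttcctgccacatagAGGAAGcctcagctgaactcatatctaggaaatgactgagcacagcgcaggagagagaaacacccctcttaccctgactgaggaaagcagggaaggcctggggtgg
Nbeal2, chr9:110654162-110654411, minus strand: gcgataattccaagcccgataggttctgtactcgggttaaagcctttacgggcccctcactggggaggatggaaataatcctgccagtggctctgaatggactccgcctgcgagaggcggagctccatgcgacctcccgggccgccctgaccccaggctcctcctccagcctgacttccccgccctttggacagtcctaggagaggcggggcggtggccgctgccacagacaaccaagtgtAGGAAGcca

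The GATA letters searched were AGATAA or its variant with a final G, AGATAG, together with the same strings opening in T, TGATAA, or ending in G as well, TGATAG. The ETS letters were AGGAAG or, with another opening base, CGGAAG. Both families were searched on both strands with no overlap among the matches found in the list, over 250 bases before and 50 after each start. RefSeq promoters were matched for 8 of the 10 genes, all but Vwf and Thbs1. Ly6g6f held 2 GATA matches, both as TTATCT, at 110 to 105 and 48 to 43 bases before the start, and 3 ETS matches. In Pf4 a GATA match, AGATAA, lay past the printed stretch, at bases 37 to 42 counted from the start as base 1, and an ETS match lay 9 to 4 bases before the start. The other 6 held no GATA letters, and Ppbp and Slc35d3 held neither kind. Of the 8 promoters 2 therefore held GATA letters and 6 held ETS letters, while among all 32851 RefSeq promoters of this length 29.8% held GATA and 46.5% held ETS letters. Nbeal2 and Pf4 each had ETS letters at the same distance from the start, on opposite strands. The GENCODE start of Tubb1 lay 100 bases downstream of the RefSeq start used here, that of F5 lay 3 bases downstream and that of Ly6g6f 15 bases upstream. A match is a string of letters, and binding was not measured.

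Libraries held 19208859 to 23123255 estimated counts. Levels below are CPM, a gene's share of the counts of its library after TMM scaling, and fold changes are FlncgKO over control. Flnc itself had 111 to 240 CPM in FlncgKO hearts, highest in replicate 3, against 623 to 844 CPM in control hearts. Summed CPM of 4 Y-linked genes was 80.7, 3.88 and 4.28 in FlncgKO replicates 1, 2 and 3 and 117 to 140 in control replicates, so Y-linked RNA was low in FlncgKO replicates 2 and 3. Without FlncgKO replicate 1, low Y-linked RNA coincides with FlncgKO and the 2 cannot be told apart. The 12 cardiomyocyte markers were abundant everywhere, with summed levels of 35527 to 41245 CPM in FlncgKO and 38811 to 44030 CPM in control hearts.

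Of the 10 genes, 9, all but Nbeal2, were higher in every FlncgKO library than in any control library. This held for 6 of 7 lineage-restricted genes and for all 3 endothelial-shared genes, Selp from very few reads, and the same separation was seen in 15.7% of all genes tested. Among the 9 the fold change was largest for the chemokine Pf4 and smallest for Vwf. Every one of the 10 genes was lowest, among FlncgKO hearts, in replicate 3, as were 34.9% of the 16048 genes tested. In bulk tissue, more cells of a type and more RNA per cell cannot be told apart.

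**Figure D1:**
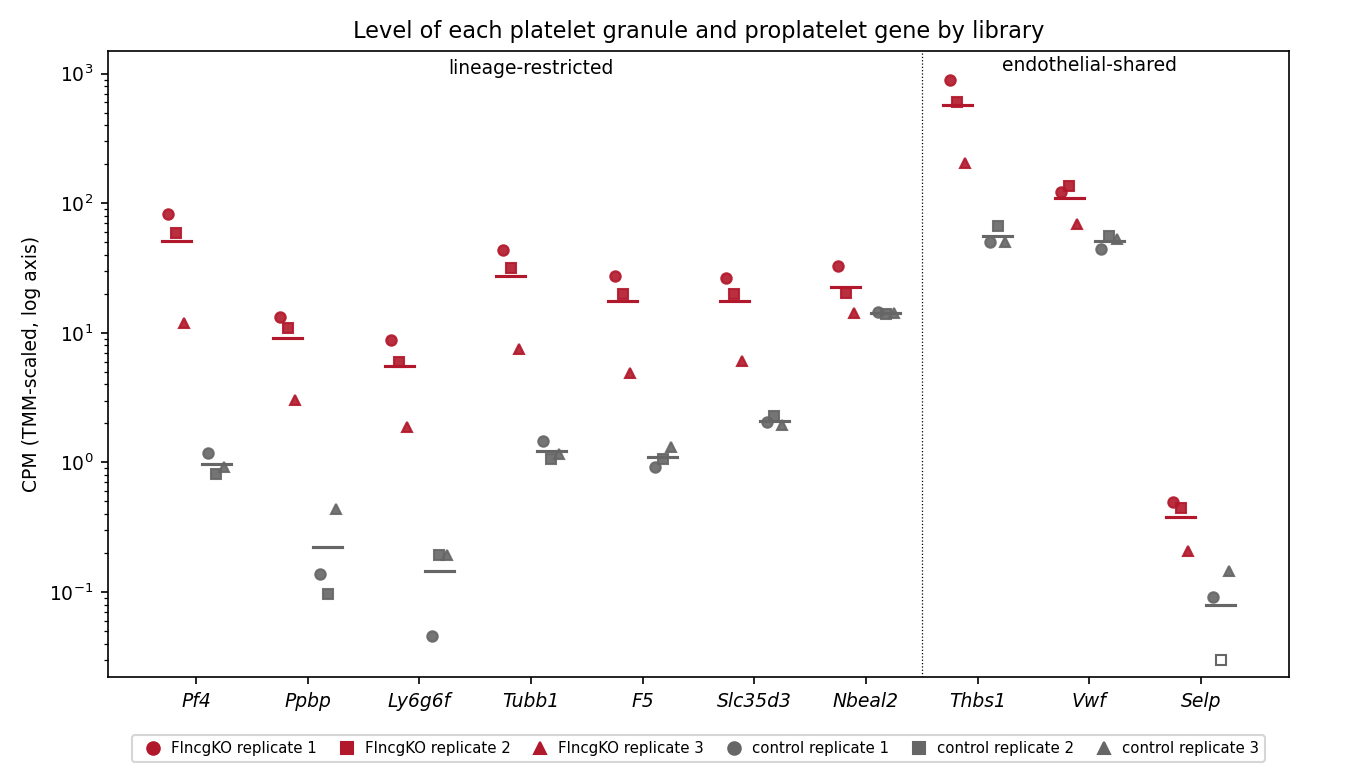
CPM (log axis) of each gene in the 3 FlncgKO libraries, left in red, and the 3 control libraries, right in grey, with horizontal bars at group means. Only Nbeal2 has FlncgKO and control points at the same height, and an open symbol marks Selp, which was at 0 in control replicate 2 and is drawn at the bottom of the axis.

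Pf4, which encodes the CXC chemokine platelet factor 4 of alpha granules (chr5:90772435-90773383), had 82.2, 58.5 and 11.9 CPM in FlncgKO replicates 1, 2 and 3, against 1.19, 0.820 and 0.918 CPM in control replicates 1, 2 and 3. The control values were close together, and the lowest FlncgKO value was still about an order of magnitude above them. The mean was 50.9 ± 35.7 CPM in FlncgKO and 0.976 ± 0.191 CPM in control hearts (SD, n = 3 each). edgeR's quasi-likelihood test gave a log2 fold change of 5.69 (SE 0.97) with a Benjamini-Hochberg adjusted p = 0.0755 over all genes, short of the threshold of 0.05. Nearly all of this RNA was the main coding transcript, ENSMUST00000031320, at 447, 323 and 62.6 TPM in FlncgKO replicates 1, 2 and 3. A shorter coding transcript and a retained-intron transcript of Pf4 were listed at 0 in each control library and at 0.704 to 8.31 TPM in FlncgKO libraries.

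Ppbp encodes the precursor of another CXC chemokine of alpha granules, CXCL7, and lies 2371 bases upstream of Pf4 on the same strand. Its levels were 13.3, 10.9 and 3.02 CPM in FlncgKO replicates 1, 2 and 3 and 0.137, 0.0965 and 0.435 CPM in control replicates. The control values rest on 3, 2 and 9 counts, so the gene entered the test through its FlncgKO libraries, with 297, 247 and 58 counts. Summed over libraries and scaled for library size, the ratio of counts was 42.4 (95% interval 25.1 to 78.0, counting error only). With edgeR the log2 fold change of Ppbp was 5.32 (SE 0.82, adjusted p = 0.0501), just outside the threshold. Pf4 and Ppbp, neighbours in the genome, thus had fold changes of like size, within an SE of each other.

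Ly6g6f encodes a membrane protein found on platelets (chr17:35080480-35085610). It was read 198, 134 and 36 times in FlncgKO replicates 1, 2 and 3, against 1, 4 and 4 times in control replicates, and it too entered the test through its FlncgKO libraries. As CPM this was 8.85, 5.91 and 1.88 in FlncgKO and 0.0457, 0.193 and 0.193 in control hearts. The ratio of summed counts was 40.3 (95% interval 20.998 to 88.8, counting error only). Ly6g6f was the single gene of the list past the threshold in edgeR, with a log2 fold change of 5.23 (SE 0.77, adjusted p = 0.0423). That is 1 of 7 lineage-restricted genes called higher, where 1.06% of all genes tested were called higher. The fold change depended on the prior count added to such low control values, and was 4.58 with a prior count of 2.

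Tubb1, the beta-tubulin isotype that builds the microtubule coil of proplatelets and platelets (chr2:174450695-174457882), had 43.1, 31.4 and 7.51 CPM in FlncgKO replicates 1, 2 and 3 and 1.46, 1.06 and 1.16 CPM in control replicates. FlncgKO replicates 1 and 2 stood well apart from replicate 3, and controls lay within a narrow band. Its log2 fold change was 4.47 (SE 0.79, edgeR adjusted p = 0.0753), the median of the lineage-restricted genes.

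F5, coagulation factor V, is stored in alpha granules and is also made by liver. In FlncgKO replicates 1, 2 and 3 F5 had 27.6, 19.8 and 4.90 CPM, against 0.915, 1.06 and 1.30 CPM in control replicates. The groups did not overlap, and the log2 fold change was 3.99 (SE 0.74, edgeR adjusted p = 0.0755). Liver and yolk sac markers followed another order, with summed levels of 17.6, 12.7 and 52.4 CPM in FlncgKO and 151, 15.2 and 32.3 CPM in control replicates, and 0 of 9 tested were called by edgeR or DESeq2 (0 at an unadjusted p under 0.05 in the upward direction). Alb, which defines hepatocytes, was at 0 in 4 of the 6 libraries and reached 3.20 CPM in control replicate 1. A pseudogene on the same strand within F5, Gm16588, had 3 counts in each FlncgKO library and 5, 7 and 10 counts in control libraries.

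The granule formation genes had smaller fold changes. Slc35d3, a transporter-family protein needed for dense granules in mouse, had 26.5, 19.9 and 6.05 CPM in FlncgKO replicates 1, 2 and 3 and 2.06, 2.27 and 1.93 CPM in control replicates. Its groups did not overlap, with a log2 fold change of 3.06 (SE 0.59, edgeR adjusted p = 0.0763). Nbeal2, a BEACH-domain protein needed to form alpha granules and lost in gray platelet syndrome, had 32.8, 20.3 and 14.2 CPM in FlncgKO and 14.5, 14.0 and 14.3 CPM in control replicates. FlncgKO replicate 3 lay within the range of controls, and the log2 fold change of 0.66 (SE 0.30, edgeR adjusted p = 0.271) did not pass. Per transcript length Nbeal2 had 5.77 ± 2.60 TPM in FlncgKO and 3.86 ± 0.606 TPM in control hearts (SD, n = 3 each), a control level that only Pf4 exceeded among the lineage-restricted genes. Its place among them was thus not borne out by a low level in control hearts.

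Of the endothelial-shared genes, Thbs1 had a fold change in the range of the lineage-restricted ones. Thbs1 encodes thrombospondin, an adhesive protein of alpha granules that endothelial and mesenchymal cells also secrete (chr2:118111876-118127133). Its levels were 894, 607 and 206 CPM in FlncgKO replicates 1, 2 and 3, against 49.99, 66.8 and 49.95 CPM in control replicates. Even FlncgKO replicate 3 was 3.70-fold above the control mean, and replicates 1 and 2 were 16.1-fold and 10.9-fold above it. The log2 fold change of 3.36 (SE 0.63, edgeR adjusted p = 0.0850) was larger than those of Slc35d3 and Nbeal2.

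Vwf, the adhesive multimer that tethers platelets to the vessel wall (chr6:125546774-125686679), had 123, 135 and 68.8 CPM in FlncgKO replicates 1, 2 and 3 and 44.5, 55.9 and 52.5 CPM in control replicates. The groups were apart but FlncgKO replicate 3 was only 1.35-fold above the control mean. Its log2 fold change was 1.10 (SE 0.27, edgeR adjusted p = 0.104). The full-length transcript ENSMUST00000112254 followed the gene, at 17.3, 19.5 and 9.87 TPM in FlncgKO and 5.94, 7.22 and 6.96 TPM in control replicates. Vwf was the one gene of the 10 that was highest in FlncgKO replicate 2, and the other 9 were highest in replicate 1, as were 28.9% of genes tested.

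Selp, which encodes P-selectin and lies 1811 bases upstream of F5, was nearly absent. It had 11, 10 and 4 counts in FlncgKO replicates 1, 2 and 3 and 2, 0 and 3 counts in control replicates, and it failed the filter on low counts. The 25 FlncgKO and 5 control counts gave a ratio of 4.93 (95% interval 1.85 to 16.5, counting error only), and a count of 0 in control replicate 2 allows up to 0.145 CPM. Without the filter its log2 fold change was 2.19 (SE 0.80, edgeR adjusted p = 0.193). Both endothelial stores and alpha granules contain P-selectin, yet its RNA was the scarcest of the list in both groups per transcript length.

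By edgeR 1 of 7 lineage-restricted and 0 of 2 tested endothelial-shared genes were called, although 8 of the 9 tested had an unadjusted p under 0.05, as did 13.3% of all genes in the upward direction. DESeq2, run on the same counts, called 6 of 7 and 2 of 2 higher, against 6.22% of genes, and left out only Nbeal2 (adjusted p = 0.116). The DESeq2 adjusted p of Vwf was 0.00888. Flnc, the deleted gene, also missed the edgeR threshold, with a log2 fold change of -2.21 (SE 0.35, edgeR adjusted p = 0.0656). DESeq2 called Flnc lower (adjusted p = 9.9e-07). Without FlncgKO replicate 3, edgeR called 7 of 7 and 2 of 2, against 6.05% of genes, with adjusted p from 4.5e-05 for Tubb1 to 0.0456 for Nbeal2. Leaving out FlncgKO replicate 1 or 2 instead gave 0 and 0, where 0.145% and 0.225% of all genes were called higher. Without control replicate 1, 2 or 3 it was again 0 and 0, where the shares of all genes were 0.00605%, 0.00601% and 0.577%, so these counts say little of the list, and the adjusted p of Ly6g6f then reached 0.216. With the Y-linked level as a covariate edgeR called 0 of the list and 0% of all genes higher, while DESeq2 called 7 of 7 and 1 of 2, against 1.52% of genes.

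**Figure D2:**
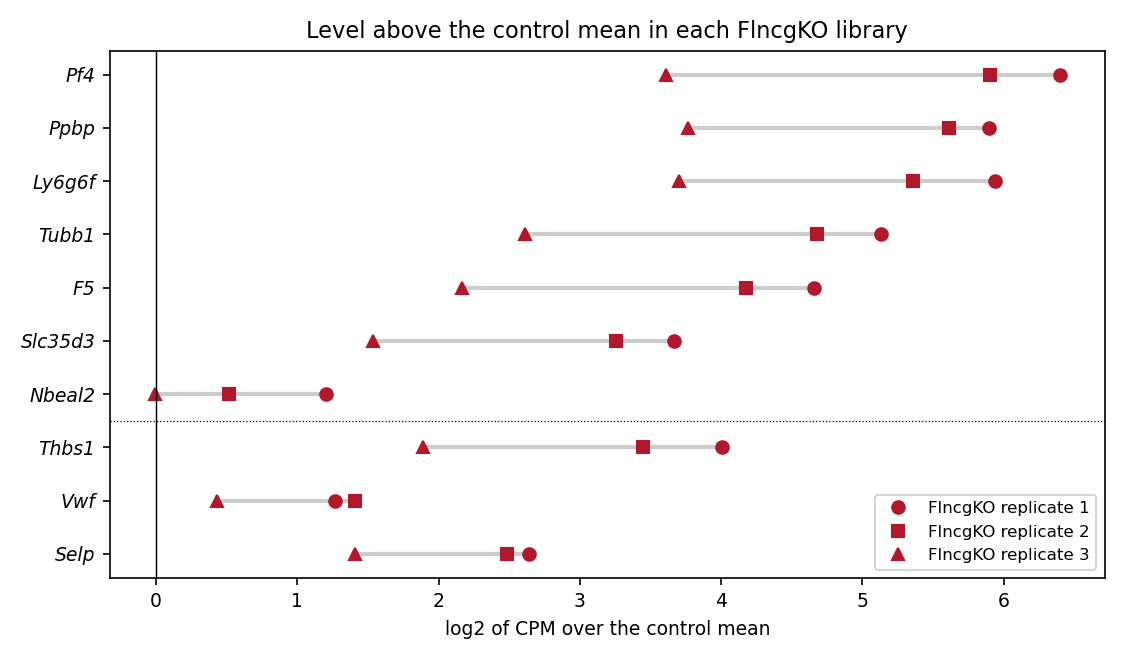
Log2 of each FlncgKO library's CPM over the control mean, by gene, with lineage-restricted genes above the dotted line and endothelial-shared genes below it. Replicate 3, the triangle, is the leftmost point in every row, at 0 for Nbeal2, and the 3 points of Vwf lie left of those of Thbs1 throughout.

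Set against each other, the lineage-restricted genes had a median of 4.47 in log2 fold change and Vwf and Thbs1 one of 2.23, where the median over all genes tested was 0.0087. The ranges crossed, from 0.66 for Nbeal2 to 5.69 for Pf4 in the lineage-restricted genes, with both Vwf and Thbs1 between them. By library, the median of log2 CPM above the control mean was 5.12, 4.66 and 2.60 for lineage-restricted genes in FlncgKO replicates 1, 2 and 3, and 2.65, 2.44 and 1.17 for Vwf and Thbs1. The gap between the sets was thus present in each FlncgKO library, at 2.47, 2.23 and 1.43. In control libraries it was between -0.24 and 0.15, where a value near 0 follows from subtracting each gene's control mean. Against Thbs1 alone the gap in FlncgKO libraries was 1.10, 1.20 and 0.70, and against Vwf alone 3.85, 3.25 and 2.16, so Vwf carried most of it. Genes are not replicates, and no test was made of these gaps.

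The spread between FlncgKO libraries also differed by gene. Replicate 1 exceeded replicate 3 by 6.88-fold for Pf4, 5.75-fold for Tubb1 and 5.63-fold for F5. For Ly6g6f, Ppbp, Slc35d3 and Thbs1 this ratio was 4.34 to 4.72, and it was 2.36 for Selp, 2.31 for Nbeal2 and 1.78 for Vwf. Counted instead as CPM in excess of the control mean, Vwf had 71.7, 84.0 and 17.8 CPM in FlncgKO replicates 1, 2 and 3. Pf4 had an excess of 81.2, 57.5 and 11.0 CPM by the same measure. On that scale FlncgKO replicate 1 exceeded replicate 3 by 4.02-fold for Vwf and 7.41-fold for Pf4, so replicate 3 was low for Vwf too.

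Levels were compared between genes per transcript length, as TPM summed over each gene's transcripts. Pf4 was first in FlncgKO hearts at 288 ± 203 TPM, against 5.38 ± 1.22 TPM in control hearts, where it came after Thbs1 and Vwf (SD, n = 3 each). Thbs1 came next in FlncgKO hearts at 151 ± 91.7 TPM and first in control hearts at 14.7 ± 2.17 TPM. Vwf had 22.9 ± 8.73 TPM in FlncgKO and 12.1 ± 1.40 TPM in control hearts. By group means it came after Pf4, Thbs1, Tubb1 and Ppbp in FlncgKO hearts but only after Thbs1 in control hearts. By library, that FlncgKO order held in replicate 1 only. In replicate 2 Vwf exceeded Ppbp (30.0 against 28.7 TPM). In replicate 3 it exceeded Tubb1 and Ppbp (13.2 against 8.26 and 7.86 TPM).

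Group ranges of Pf4 and Thbs1 overlapped in FlncgKO hearts, but within each library the order was fixed. The ratio of Thbs1 to Pf4 TPM was 0.508, 0.493 and 0.825 in FlncgKO replicates 1, 2 and 3, against 2.06, 3.91 and 2.61 in control replicates. Tubb1, Ppbp and Vwf, at means of 31.0, 23.8 and 22.9 TPM in FlncgKO hearts, were within their spread of each other, as were Slc35d3, Ly6g6f, Nbeal2 and F5 with their neighbours in order. Selp, at 0.174 ± 0.0702 TPM, was below F5 in each FlncgKO library. In control hearts the TPM ranges of Pf4 and Nbeal2 overlapped, as did those of Slc35d3 and Tubb1 and of Ppbp, Ly6g6f and F5.

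The make-up of the list also shifted. Pf4 supplied 77.8%, 77.0% and 69.6% of the summed TPM of the lineage-restricted genes in FlncgKO replicates 1, 2 and 3, and 44.2%, 36.8% and 38.8% in control replicates. That sum was 595, 437 and 92.4 TPM in FlncgKO hearts, against 15.3, 11.9 and 12.9 TPM in control hearts. Tubb1 per Pf4 was 0.105 to 0.129 TPM per TPM in FlncgKO libraries and 0.247 to 0.265 in control libraries. Thbs1 per Vwf was 9.15, 5.52 and 4.02 in FlncgKO replicates 1, 2 and 3, and 1.32, 1.32 and 1.02 in control replicates.

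**Figure D3:**
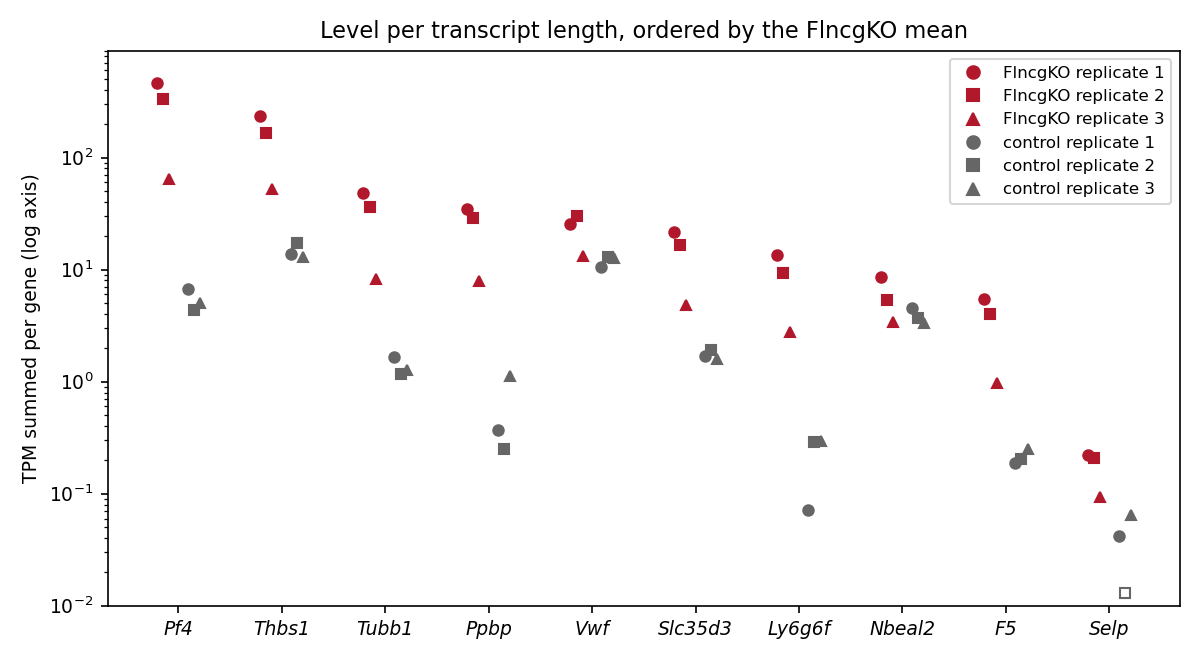
TPM summed per gene (log axis) in the 3 FlncgKO libraries, left in red, and the 3 control libraries, right in grey, with genes ordered by their FlncgKO mean. Pf4 leads in FlncgKO hearts and Thbs1 and Vwf lead in control hearts, while Selp is last in both, its 0 in control replicate 2 drawn as an open symbol.

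Markers of the cells that could carry this RNA were read in the same libraries. Of 13 megakaryocyte markers, mostly surface and signalling genes, all were higher without overlap, with a median log2 fold change of 3.94. DESeq2 called 13 of them, while edgeR called 0 and gave 13 an unadjusted p under 0.05. Of all genes, 15.7% were higher without overlap and 13.3% were higher at an unadjusted p under 0.05 in edgeR. DESeq2 called 6.22% of all genes higher and edgeR 1.06%. These shares also stand beside the counts of the lists below. The megakaryocyte markers were chosen with earlier results of these data known, so their counts only describe the list. Gp9, Treml1 and Rgs18 had at most 0.274, 0.386 and 0.320 CPM in any control library and entered the test through their FlncgKO libraries. Medians of the megakaryocyte markers in log2 above the control mean were 4.66, 3.996 and 1.93 in FlncgKO replicates 1, 2 and 3. Endothelial markers had a median log2 fold change of 0.29, and 2 of 16, Sox17 and Emcn, were called higher by edgeR. DESeq2 gave 8 of the 16 as higher and 1 as lower, 9 were higher at an unadjusted p under 0.05 in edgeR, and 8 were higher without overlap. Their summed level was 1386, 1673 and 1386 CPM in FlncgKO and 1143, 1321 and 1203 CPM in control replicates, highest in FlncgKO replicate 2, as was Vwf. Pecam1, an adhesion molecule of endothelium that platelets also carry, had 98.8, 131 and 115 CPM in FlncgKO and 69.8, 92.5 and 80.7 CPM in control replicates (edgeR adjusted p = 0.1003, DESeq2 adjusted p = 0.00444). The part of endothelial RNA in the higher Vwf and Thbs1 was not tested.

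The summed markers of other blood cells had another order of libraries. Erythroid markers, with globins making up most of the sum, came to 9052, 8032 and 12885 CPM in FlncgKO and 3488, 3423 and 9328 CPM in control replicates, so they were highest in FlncgKO replicate 3, where the platelet genes were lowest. All 11 tested had a positive log2 fold change, with a median of 0.87, and 1, the transferrin receptor gene Tfrc, was called higher, at 445, 469 and 424 CPM in FlncgKO and 325, 323 and 338 CPM in control replicates (log2 fold change 0.44, edgeR adjusted p = 0.0310). Macrophage and leukocyte markers summed to 35.3, 26.8 and 45.8 CPM in FlncgKO and 13.2, 15.6 and 25.3 CPM in control replicates. The pan-leukocyte gene Ptprc was at 0.358, 0.353 and 3.49 CPM in FlncgKO and 0.320, 0.0965 and 0.918 CPM in control replicates, and Adgre1 and Aif1 were at or near 0 in every library. Coro1a and Itgb2, of the 6 leukocyte markers tested, were called higher. Both followed the order of the platelet genes, with 15.1, 12.5 and 5.79 CPM of Coro1a and 8.67, 5.87 and 3.60 CPM of Itgb2 in FlncgKO replicates 1, 2 and 3, against 0.483 to 1.30 CPM and 0.965 to 1.64 CPM in control replicates. Together they made up most of the leukocyte sum in FlncgKO replicates 1 and 2. Csf1r had 2.19, 1.72 and 15.9 CPM in FlncgKO and 1.46, 0.917 and 5.99 CPM in control replicates. Mrc1 was lower without overlap, at 1.92, 1.28 and 1.15 against 2.61, 2.65 and 2.75 CPM (edgeR adjusted p = 0.102). Cd68 and Lyz2 had log2 fold changes of -0.07 and -0.21. Smooth muscle and fibroblast markers summed to 3924 to 4350 CPM in FlncgKO and 4022 to 4162 CPM in control hearts. Of these, 0 of 12 were called by edgeR (4 higher at an unadjusted p under 0.05, 2 higher by DESeq2). Most of that sum was Acta2, so the sum says little of the scarcer markers. Col1a1, a fibroblast collagen, had 98.9, 144 and 215 CPM in FlncgKO and 32.7, 22.3 and 35.3 CPM in control replicates (log2 fold change 2.34, edgeR adjusted p = 0.0605, DESeq2 adjusted p = 5.13e-08). Col1a1 was highest in FlncgKO replicate 3, where Thbs1 was lowest, but the order of libraries differed among these markers. Postn and Lum were highest in FlncgKO replicate 1, as was Thbs1. Postn had 25.9, 11.2 and 9.96 CPM in FlncgKO and 5.85, 10.8 and 7.39 CPM in control replicates (log2 fold change 0.97, edgeR adjusted p = 0.291). Lum had 4.20, 1.01 and 1.41 CPM against 0.823, 0.0965 and 0.580 CPM (2.13, edgeR adjusted p = 0.200). The part of such cells in the higher Thbs1 was not tested. Immediate early genes, which react to handling and stress, summed to 280, 231 and 204 CPM in FlncgKO and 185, 172 and 189 CPM in control replicates, with 0 of 9 called by edgeR (6 at an unadjusted p under 0.05) and 5 by DESeq2, and their part in the results was not tested.

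The wider granule and proplatelet machinery was read from 4 further lists of 67 genes, of which 64 were tested, 4 were called higher by edgeR and 0 lower, against 1.06% higher and 0.249% lower of all genes tested. Of the 64, 33 were higher without overlap, against 15.7% of all genes tested. Their median log2 fold change was 0.26, far below that of the lineage-restricted genes. Among 16 other granule content genes tested, Pdgfb, a platelet growth factor that endothelium also makes, was called. It had 27.0, 27.9 and 15.02 CPM in FlncgKO and 3.61, 4.10 and 3.82 CPM in control replicates, a log2 fold change of 2.60 (SE 0.25, edgeR adjusted p = 0.0310). The anticoagulant cofactor Pros1 had a log2 fold change of 1.03 (edgeR adjusted p = 0.0534). Of this list 10 genes were higher without overlap, and DESeq2 called 8, where the shares of all genes were 15.7% and 6.22%.

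Content genes were not uniform. F13a1, the clotting transglutaminase, and Mmrn1, the alpha granule protein that binds factor V, had log2 fold changes of 3.49 and 2.43 and did not pass (edgeR adjusted p = 0.0814 and 0.120). Both were lowest of the FlncgKO libraries in replicate 3, with Mmrn1 at 28.3, 25.5 and 6.00 CPM in FlncgKO and 3.38, 4.54 and 3.14 CPM in control replicates. Srgn, the granule proteoglycan to which Pf4 binds, did not follow Pf4, with 6.13, 1.01 and 20.8 CPM in FlncgKO and 3.66, 0.241 and 20.2 CPM in control replicates. Igf1 and Gas6, which many tissues make, had log2 fold changes of 0.00.

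The machinery that forms, moves and releases granules had small fold changes for the most part. Of 21 formation and transport genes 0 were called by edgeR (8 higher at an unadjusted p under 0.05) and 2 by DESeq2, with a median log2 fold change of 0.19. The exception in size was Rab27b, a small GTPase of dense granule formation, at 69.9, 40.2 and 12.6 CPM in FlncgKO and 3.43, 3.86 and 5.31 CPM in control replicates (log2 fold change 3.29, edgeR adjusted p = 0.0994). Hps4 and Hps1, subunits of a complex lost in Hermansky-Pudlak syndrome, had 0.45 and 0.36 (edgeR adjusted p = 0.0685 and 0.119). Of 12 release genes 0 were called by edgeR (8 higher at an unadjusted p under 0.05) and 6 by DESeq2, with a median of 0.31. The lowest p among them were those of Stx11, the syntaxin of platelet secretion, Stx4a and the kinase Prkcq, with log2 fold changes of 1.20, 0.33 and 3.23. Fermt3, the kindlin of blood cells, had the largest fold change of the release list, at 122, 68.1 and 19.7 CPM in FlncgKO and 5.53, 4.15 and 7.29 CPM in control replicates (log2 fold change 3.63, edgeR adjusted p = 0.103, DESeq2 adjusted p = 4.47e-05). Rab27b, Prkcq and Fermt3 thus had fold changes near or above that of Slc35d3, while most genes of the same lists did not.

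In the proplatelet cytoskeleton 3 of 15 genes tested were called higher by edgeR, with a median of 0.20, and 2 of 14 where 10 counts were required in every library. DESeq2 called 6 of the 15 higher and 8 were higher without overlap, where the shares of all genes were 6.22% and 15.7%. Myh9, nonmuscle myosin heavy chain, had 684, 631 and 564 CPM in FlncgKO and 343, 359 and 373 CPM in control replicates, a log2 fold change of 0.80 (SE 0.08, edgeR adjusted p = 0.0212). Flna, filamin A, rose by 0.44 on the log2 scale (adjusted p = 0.0310). Both are expressed in most cells, and their 3 FlncgKO libraries were close together. Tuba8, an alpha-tubulin that pairs with the Tubb1 product in platelets, had 2.28, 1.72 and 0.782 CPM in FlncgKO and 0.0915, 0.193 and 0.0966 CPM in control replicates, a log2 fold change of 3.60 (SE 0.54, edgeR adjusted p = 0.0372). It had under 10 counts in every control library and entered the test through its FlncgKO libraries.

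**Figure D4:**
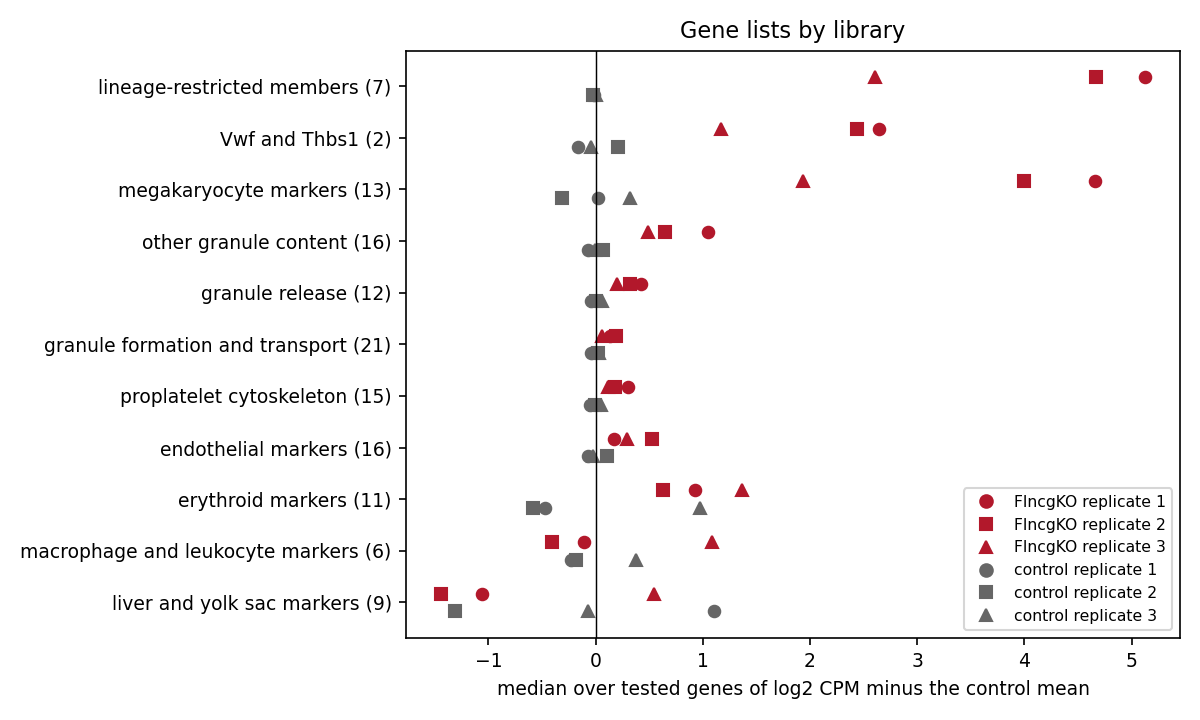
For each list, the median across its tested genes (their number in parentheses) of log2 CPM less the mean of controls, for FlncgKO libraries in red above control libraries in grey. Lineage-restricted genes and megakaryocyte markers lie far to the right in FlncgKO replicates 1 and 2 and less so in replicate 3, the release, formation and cytoskeleton lists lie near 0, other granule content lies between 0.49 and 1.05 in FlncgKO libraries, and the erythroid and leukocyte lists are highest in FlncgKO replicate 3.

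Within the list, each gene's log2 CPM over the 6 libraries was set against the mean of the other lineage-restricted genes. As a description over libraries that fall into 2 groups, Pearson's r was 0.972 to 0.998 for 6 lineage-restricted genes and 0.821 for Nbeal2. It was 0.992 for Thbs1, 0.962 for Vwf and 0.828 for Selp, so Thbs1 kept to the pattern as closely as Pf4 did. Among 14325 other genes of at least 1 CPM on average, the 6 closest to the mean of the 7 were Clec1b, Fhl3, Cnn2, Plek, Vav1 and Lcp2, with r from 0.997 to 0.999. Clec1b, the platelet receptor for podoplanin, had 24.2, 16.3 and 4.59 CPM in FlncgKO and 0.823, 0.820 and 1.21 CPM in control replicates. The likeness ignores size, since Cnn2, a calponin, had a log2 fold change of 0.25 and Lcp2, the adaptor SLP-76, one of 5.14.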

How the data were processed

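RNA-seq of 6 mouse heart libraries was used, with groups and replicate numbers from the labels. The deposited files hold the authors' salmon estimated counts and TPM for 140658 transcripts (GENCODE M22, GRCm38.p6). The salmon version was not given in the sources used here. Transcripts were joined to genes through GENCODE M21 (GRCm38), and 0.370% of transcripts, with 0.108% to 0.131% of counts, had no gene there and were left out. Expected counts were summed per gene and rounded. Deposited TPM values were summed per gene and used only to set levels between genes and transcripts. Depth was 19208859 to 23123255 counts per library, and intervals cover counting error only. Whether strand was used in counting was not stated. Antisense neighbours of Selp, F5 and Thbs1 had at most 6 counts in any library.

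FlncgKO was compared with control by edgeR 4.0.16 in R 4.3.3 (robust quasi-likelihood fit, TMM scaling, genes kept by filterByExpr at min.count 10), with Benjamini-Hochberg adjustment over all 16048 genes tested and a threshold of 0.05. DESeq2 1.42.0, other scalings and filters, length offsets, a Y-linked covariate, a replicate block and leaving out each library were alternatives. DESeq2 with the Y-linked covariate or without each library was chosen after seeing the data. Scripts were tested on simulated data. The genes and lists were chosen with earlier results of these data known. Further genes were named where they passed the threshold or had up to 3 of the smallest p in a list, or by likeness. A few, such as Fermt3, Col1a1, Postn, Lum, Csf1r, Mrc1, Gp9, Treml1, Rgs18, F13a1, Mmrn1, Srgn, Igf1 and Gas6, were chosen after their values were seen. Some results are not reported here.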

Additional observations from a re-analysis of the deposited data

How the results depend on the processing

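All 9 tested genes kept a higher level in FlncgKO under every alternative in which they were tested (Ppbp and Ly6g6f were not tested with 10 counts in every library), and no value reversed. The gap between the set medians was 2.25 on the log2 scale and ranged from 1.77 to 2.52. The count of lineage-restricted genes called was 1. It was 0 with 10 counts in every library, with no low-count filter, with length offsets and with the Y-linked covariate, 6 with DESeq2, and 7 with DESeq2 and the covariate. Leaving out libraries gave 0 to 7 with edgeR, where 7 came without FlncgKO replicate 3, and 6 to 7 with DESeq2. Endothelial-shared genes called were 0, against 2 with DESeq2 and 1 with DESeq2 and the covariate, with 0 to 2 on leaving out libraries with edgeR and 1 to 2 with DESeq2. Over all genes 210 were called, against 1349 with DESeq2, 554 with no filter, 76 with length offsets and 0 with the covariate (265 with DESeq2 and the covariate). Leaving out libraries gave 1 to 1272 with edgeR and 665 to 1805 with DESeq2. Deviations from the group mean correlated between same-numbered libraries with r of 0.029, 0.569 and 0.592 for numbers 1, 2 and 3. Between unlike numbers r was -0.607 to 0.134. Whether the numbers mark litters was not stated, so the main fit did not pair libraries. With the replicate number as a block, 3 lineage-restricted genes (Pf4, Tubb1 and Ly6g6f) and 632 genes in all were called, and 0 endothelial-shared ones. Each FlncgKO library, and control replicates 2 and 3, correlated best with the library of its own number in the other group. Control replicate 1 correlated more with FlncgKO replicate 2 (r = 0.134) than with FlncgKO replicate 1 (0.029). Of the comparisons of single genes with an alternative, 125 kept their side of the threshold, 63 passed it newly and 8 no longer passed. The causes of these shifts were not tested.

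Control levels of Ly6g6f, Ppbp and Selp rest on 9 counts or fewer per library, and with 3 libraries a group an exact permutation test of a single gene cannot go below p = 0.1.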
